A study of Homo sapiens with 15 samples.

Results

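Desmosomes are spot-like junctions that rivet neighbouring epithelial cells together. Their adhesive part is built from 2 families of cadherins, the desmogleins (DSG) and desmocollins (DSC), whose tails bind plakoglobin (JUP) and plakophilins (PKP) in a cytoplasmic plaque. Desmoplakin (DSP) then ties the plaque to keratin filaments. Stratified epithelia such as the oral lining change the mixture of these proteins as cells mature, with DSG1 and DSC1 typical of the upper layers and DSG3 and DSC3 of the lower ones.

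The genes described here are 10 of the 19483 named genes on the array: the cadherins DSG1, DSG2, DSG3, DSC2 and DSC3 and the plaque proteins DSP, JUP, PKP1, PKP2 and PKP3. They were taken by name, with earlier results of these data known, and every probe annotated to a RefSeq transcript of one of them was used, which gave 13 of 42405 probes. DSC3, DSP and PKP1 had 2 probes each and the other genes 1. For 9 of the genes, 12 probes were well above background on every array of at least 1 group and were tested. DSG1 was the gene that was not.

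Expression was measured in PE/CA-PJ41, an established line from a human oral squamous cell carcinoma. The group CYGB+ is a stable transfectant, isolated with a cloning ring under G418, of the pCMV6-Neo plasmid with the human cytoglobin cDNA behind a viral promoter. Cytoglobin (CYGB) is a haem protein of the globin family. The group NCE (non-cytoglobin expressing, mock) is by its labels the same line with the empty vector, whereas the study's text describes its control cells as not transfected. Which of these the NCE arrays hold is not settled here. Cells of both groups spent 24 hours in supplemented medium before RNA was extracted, and each group has 3 biological samples, extracted on separate occasions. Each NCE sample was hybridised to 3 arrays and each CYGB+ sample to 2, and array repeats were averaged, so that all tests compared 3 samples with 3. The p-values therefore measure the spread between RNA extractions of 1 cell population per group and not the spread between clones. In such bulk RNA, fewer cells that express a gene and less of its RNA per cell cannot be told apart.

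The arrays lay on 2 slides. Slide 1 held 8 of the 9 NCE arrays, and slide 2 held the remaining NCE array, from NCE replicate 1, with all 6 CYGB+ arrays, so slide and group were nearly the same split. One array stood apart. The first array of CYGB+ replicate 1 had a median correlation of 0.917 with the other arrays of its group, against 0.967 to 0.989 for the other arrays of both groups, and its median green signal was 33.3 against 42.3 to 71.1. Values of the desmosome genes are given without it where a call changed or the difference moved by over 1.5 times, and those of the related genes where a call changed. The CYGB probe read 12.84, 13.14 and 12.96 (log2 green signal) in NCE replicates 1 to 3 and 12.39, 13.47 and 13.01 in CYGB+ replicates 1 to 3, a difference of -0.02 (SE 0.27, adjusted p = 0.967). That probe does not separate the groups, and was well above background on all 9 NCE arrays although NCE is named non-cytoglobin expressing. Whether the probe lies within the transfected cDNA is not known here, so these arrays give the labels no check from the transgene. The study reports PCR, qPCR and ELISA of cytoglobin in its clones, which are not part of these arrays. NCE and CYGB+ below are the samples so labelled.

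The markers of stratified and simple epithelium were present. All 7 squamous markers (KRT5, KRT14, KRT6A, KRT17, TP63, CDH1 and EPCAM) and all 3 simple epithelial keratins (KRT8, KRT18 and KRT19) had a tested probe, and none passed the test between the groups by limma, with 3 and 2 of them at an unadjusted p under 0.05 and none called by the methods' t-test. Of 6 fibroblast markers, COL3A1 and PDGFRB were not well above background on any array, and each DCN probe was so on 1 array of 15. The log2 of the summed signal of the 3 tested fibroblast markers ran from 13.26 to 13.91 in the NCE samples. In the CYGB+ samples it ran from 12.30 to 12.92. That sum is mostly VIM, with an NCE mean of 13.46 beside 8.45 for COL1A2 and 5.57 for COL1A1. COL1A2 was lower in CYGB+ by the test (difference -2.54, adjusted p = 0.00111). VIM was at -0.88 (adjusted p = 0.0532) and COL1A1, with overlapping groups, at 0.24 (adjusted p = 0.716). The part of this in the values below was not tested.

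The desmosomal cadherin genes stand side by side on chromosome 18, in the order DSC3, DSC2, DSC1, DSG1, DSG4, DSG3, DSG2 in the RefSeq annotation. The 4 genes at the outer ends of this row were well above background on all 9 NCE and all 6 CYGB+ arrays. The 3 genes in its middle were not. DSG1 was well above background on 1 NCE array and on no CYGB+ array, with log2 signals of 2.33, 2.35 and 2.31 in the NCE samples and 2.29, 2.31 and 2.55 in the CYGB+ samples. The spots of that 1 array, a repeat of NCE replicate 3, were flagged as outliers and left out, so the value of NCE replicate 3 comes from its other arrays. DSC1 and DSG4, which are not among the 10 genes, were well above background on no array. Beyond that 1 array detection of the row did not separate the groups, and no fold is given for any of the 3.

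**Figure D1:**
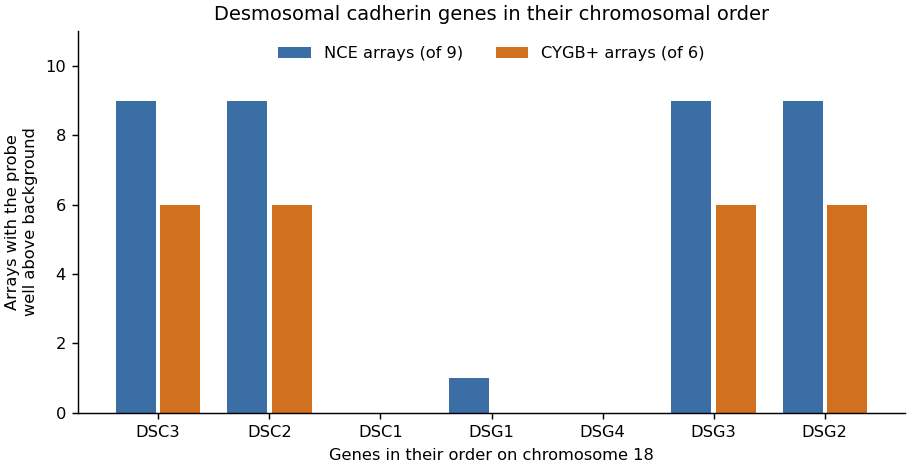
Number of arrays (vertical axis) on which each desmosomal cadherin gene's probe was well above background, for NCE (of 9 arrays) and CYGB+ (of 6), with the genes in chromosomal order along the horizontal axis. DSC1, DSG1 and DSG4 in the middle were at or near 0 in both groups, and the outer 4 genes were detected on every array.

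The sequences just upstream of part of this row are shown, from neighbours that were not detected (DSC1 and DSG1) and neighbours that were (DSG3 and DSG2). DSG4 lies between DSG1 and DSG3. Each line below holds the 250 bases before the RefSeq start (GRCh38.p14, 5′ to 3′ on the strand of the gene) of DSC1 and DSG1, not well above background, and of DSG3 and DSG2, detected on every array. Capitals mark the longest run of identical bases found between any windows of different genes of the row.
DSC1, chr18:31162857-31163106, minus strand: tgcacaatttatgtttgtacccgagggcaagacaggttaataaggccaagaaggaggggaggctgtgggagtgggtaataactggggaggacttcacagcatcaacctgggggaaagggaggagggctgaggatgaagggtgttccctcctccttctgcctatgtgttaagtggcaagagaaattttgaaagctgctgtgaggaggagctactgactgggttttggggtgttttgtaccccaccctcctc
DSG1, chr18:31317910-31318159, plus strand: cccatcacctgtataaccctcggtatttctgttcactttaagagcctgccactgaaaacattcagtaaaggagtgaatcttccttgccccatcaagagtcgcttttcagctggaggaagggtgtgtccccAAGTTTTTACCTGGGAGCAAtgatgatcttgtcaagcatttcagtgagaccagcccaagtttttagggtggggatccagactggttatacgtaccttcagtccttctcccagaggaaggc
DSG3, chr18:31447491-31447740, plus strand: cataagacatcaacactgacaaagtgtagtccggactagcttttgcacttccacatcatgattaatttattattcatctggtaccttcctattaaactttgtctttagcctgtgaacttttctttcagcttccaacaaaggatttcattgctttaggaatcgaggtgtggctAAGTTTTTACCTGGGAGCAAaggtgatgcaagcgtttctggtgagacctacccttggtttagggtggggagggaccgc
DSG2, chr18:31497927-31498176, plus strand: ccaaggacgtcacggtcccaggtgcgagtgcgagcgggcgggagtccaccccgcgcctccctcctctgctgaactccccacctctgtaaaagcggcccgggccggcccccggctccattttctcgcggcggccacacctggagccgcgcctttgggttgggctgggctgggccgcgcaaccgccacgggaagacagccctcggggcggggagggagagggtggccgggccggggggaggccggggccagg

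That run of 20 bases begins 120 bases before the start of DSG1 and 78 bases before that of DSG3. Over the 20 pairs of windows that could be compared, the second longest run was of 9 bases, and of 35116 RefSeq windows of this length those of DSG1 and DSG3 alone held the run on either strand. The shared letters lie before a gene that was not detected and before one that was. G and C made up 52.0% of the DSC1 window, 48.0% of that of DSG1, 42.8% of that of DSG3 and 75.2% of that of DSG2. The detected genes DSC3 and DSC2, whose windows are not printed, had 60.4% for DSC3 and 59.6% and 66.8% for DSC2. The detected genes thus lay above DSC1 and DSG1, apart from DSG3, which lay below both. A link of this share to detection was not tested. DSG4, PKP2 and PKP3 had no window.

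Among all 19791 probes tested, limma called 2300 at a false discovery rate of 5%, 11.6% of them, with 1251 higher and 1049 lower in CYGB+. Of the 12 desmosome probes 1 was called, that of PKP3, or 1 gene of 9. It was called lower, where 5.30% of all probes were, and 0 were called higher, where 6.32% were. These shares are close to the background. At an unadjusted p under 0.05 limma had 4 of the 12, those of PKP3, DSG3 and DSP. No share over all probes is given for this or the other unadjusted counts in the text, so they are not set against a background. The methods' t-test called 1 of the 12, beside 794 of all 19791 probes. By sign alone, 8 probes were lower and 4 higher in CYGB+, with a median log2 difference of -0.24, against 0.01 for all probes tested. Only PKP3 among the 8 was called, and they include both PKP1 probes and DSC2 at -0.02. The median size of the difference, regardless of sign, was 0.40 for the desmosome probes and 0.30 for all. Groups did not overlap for 4 of the 12 probes, and for 35.0% of all probes tested. Below, a difference is the CYGB+ mean minus the NCE mean of log2 green signal, so that a negative value is lower in CYGB+, and every adjusted p is limma's with the Benjamini-Hochberg adjustment over all tested probes.

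**Figure D2:**
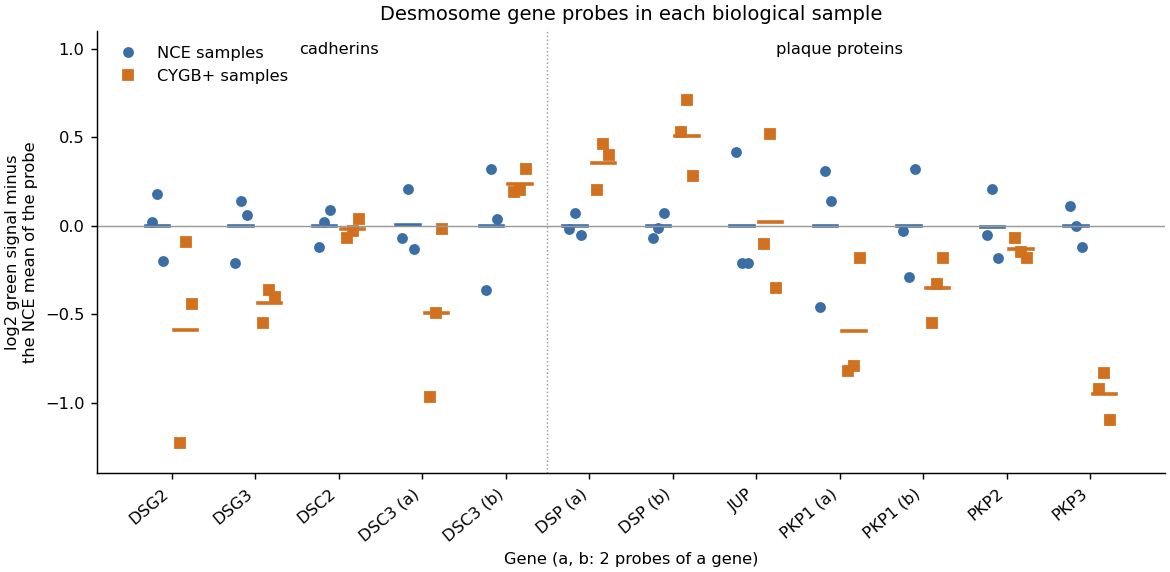
Log2 green signal of each tested desmosome probe in the 3 NCE and 3 CYGB+ samples, drawn relative to the NCE mean of that probe (vertical axis), with short bars for the group means; a and b are the 2 probes of a gene in the order of the text. PKP3 and DSG3 lie wholly below their NCE samples, both DSP probes lie wholly above, and the samples of the other genes overlap.

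The desmogleins bind partners across the gap between cells. DSG2, the desmoglein of simple epithelia and of many carcinoma lines, read 9.62, 9.78 and 9.40 in the NCE samples and 8.37, 9.51 and 9.16 in the CYGB+ samples (probe A_23_P141730). Its groups overlapped because CYGB+ replicate 2 lay above NCE replicate 3. The difference was -0.59 (95% confidence interval -1.25 to 0.07, adjusted p = 0.217), and the low value of CYGB+ replicate 1 came from the array that stood apart, at 7.48 against 9.26 on the sample's other array. Without that array the difference was -0.29 (adjusted p = 0.212).

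DSG3, the desmoglein of the lower layers of stratified epithelium and the main autoantigen of pemphigus vulgaris, read 8.76, 9.11 and 9.03 in the NCE samples and 8.42, 8.61 and 8.57 in the CYGB+ samples (probe A_33_P3348747). The groups did not overlap, with a gap of 0.16, and the difference was -0.44 (95% confidence interval -0.81 to -0.07, adjusted p = 0.117), which did not pass the test. The slides divided this gene as the groups did. The 8 NCE arrays of slide 1 lay between 8.89 and 9.17, the NCE array on slide 2 was at 8.49, and the CYGB+ arrays, all on slide 2, lay between 8.17 and 8.75. With slide as a term in the fit the DSG3 difference was 0.00 (SE 0.21, adjusted p = 0.998). Only the NCE array on slide 2 separates slide from group in that fit. Slide and group can therefore hardly be told apart for this gene.

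Desmocollins pair with desmogleins. DSC2, the most widely expressed of them, read 6.66, 6.80 and 6.87 in the NCE samples and 6.71, 6.75 and 6.82 in the CYGB+ samples (probe A_23_P4494). The CYGB+ values lay inside the NCE range, with a difference of -0.02 whose 95% confidence interval ran from -0.35 to 0.32 (adjusted p = 0.952), and of 0.00 without the array that stood apart. A change of either sign larger than 1.28-fold lies outside that interval.

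The probes of DSC3, the desmocollin of the lower layers, gave opposite signs. Probe A_24_P344416 (a) read 7.78, 8.06 and 7.72 in the NCE samples and 6.88, 7.36 and 7.83 in the CYGB+ samples, a difference of -0.50 (SE 0.25, adjusted p = 0.233). Probe A_33_P3266898 (b) read 7.66, 8.34 and 8.06 in the NCE samples and 8.21, 8.22 and 8.34 in the CYGB+ samples, a difference of 0.24 (SE 0.20, adjusted p = 0.461), or 0.06 without the array that stood apart (adjusted p = 0.87). The files annotate them to different transcripts of the gene. Neither passed the test, both overlapped between the groups, and the contrast between the 2 probes was not tested.

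In the plaque, DSP is the obligate link to keratin. Its probe A_32_P157945 (a) read 13.32, 13.41 and 13.29 in the NCE samples and 13.54, 13.80 and 13.74 in the CYGB+ samples, and its probe A_33_P3402565 (b) read 12.43, 12.49 and 12.57 against 13.03, 13.21 and 12.78. On both probes every CYGB+ sample lay above every NCE sample. The differences were 0.35 (95% confidence interval 0.00 to 0.70, adjusted p = 0.167) and 0.51 (95% confidence interval 0.12 to 0.89, adjusted p = 0.0872), or 1.28-fold and 1.42-fold, and neither passed the test. The probes share a gene and the same RNA, so they are not separate samples.

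On probe a, the arrays of CYGB+ replicate 1 gave 12.80 and 14.27, the lower being the array that stood apart. Without it both DSP probes were called, at 0.60 (adjusted p = 0.0404) and 0.50 (adjusted p = 0.0462), and the number called among all probes was 4083. In the other 16 alternatives neither probe passed, with differences between 0.30 and 0.64 over the probes and alternatives together and adjusted p up to 0.691. The NCE array on slide 2 read 13.20 on probe a and 12.42 on probe b, within the range of the other NCE arrays on both.

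JUP, shared by desmosomes and adherens junctions, differed among samples of a group rather than between the groups. It read 12.78, 12.15 and 12.15 in the NCE samples and 12.26, 12.88 and 12.01 in the CYGB+ samples (probe A_23_P501822), a difference of 0.02 (95% confidence interval -0.61 to 0.65, adjusted p = 0.972). NCE replicate 1 was high on all 3 of its arrays, at 12.71 to 12.89 and on both slides, and CYGB+ replicate 2 on both of its arrays. The arrays of CYGB+ replicate 1 gave 11.73 and 12.78, the lower being the array that stood apart. Without the array that stood apart the difference was 0.19 (adjusted p = 0.651). The interval spans changes from 1.53-fold lower to 1.57-fold higher.

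Plakophilins are armadillo-repeat proteins that cluster the cadherins and desmoplakin. PKP1, most abundant in the upper layers of stratified epithelium, read 5.97, 6.74 and 6.57 in the NCE samples and 5.61, 5.64 and 6.25 in the CYGB+ samples on probe A_23_P23296 (a). Its probe A_33_P3393971 (b) read 6.33, 6.07 and 6.68 against 5.81, 6.03 and 6.18. Both were lower on average in CYGB+, by -0.59 (SE 0.26, adjusted p = 0.18) and -0.35 (SE 0.20, adjusted p = 0.284), with overlapping groups and no call. On probe b, NCE replicate 2 had an array at 4.61 beside arrays at 6.72 and 6.87.

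PKP2, the plakophilin of simple epithelia and heart muscle, read 10.52, 10.78 and 10.39 in the NCE samples and 10.50, 10.42 and 10.39 in the CYGB+ samples (probe A_33_P3405728). The groups overlapped. The difference was -0.13 (95% confidence interval -0.50 to 0.24, adjusted p = 0.622), and without the array that stood apart -0.26 (adjusted p = 0.262).

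PKP3, found in the desmosomes of most epithelia, was the one member that passed the test. It read 15.31, 15.20 and 15.08 in the NCE samples, a mean of 15.20 ± 0.12 (SD, n = 3), and 14.28, 14.37 and 14.10 in the CYGB+ samples, a mean of 14.25 ± 0.14 (SD, n = 3), on probe A_33_P3317628. The groups were separated by a gap of 0.71, and none of the spots was saturated. The difference of -0.95 (95% confidence interval -1.31 to -0.59, adjusted p = 0.0105 by limma) is 1.93-fold lower signal in CYGB+, lower in 3 of 3 samples. It was of ordinary size among the calls: of the 1049 probes called lower, 51.9% fell further.

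On single arrays PKP3 did not overlap either. The 8 NCE arrays of slide 1 lay between 14.80 and 15.48, the NCE array on slide 2 was at 15.33, and the 6 CYGB+ arrays lay between 13.97 and 14.48. With slide as a term the difference was -1.04 (adjusted p = 0.0348), where 3.50% of 19429 probes were called. On slide 2 alone, with 1 NCE array against 3 CYGB+ samples, it was -1.08 and was not called (adjusted p = 0.264), as were all but 0.384% of probes. The call was also lost without NCE replicate 2, at the same difference of -0.95 (adjusted p = 0.0543). It stood in 15 of 17 alternatives, with differences from -1.08 to -0.74 and adjusted p from 0.00716 to 0.264.

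**Figure D3:**
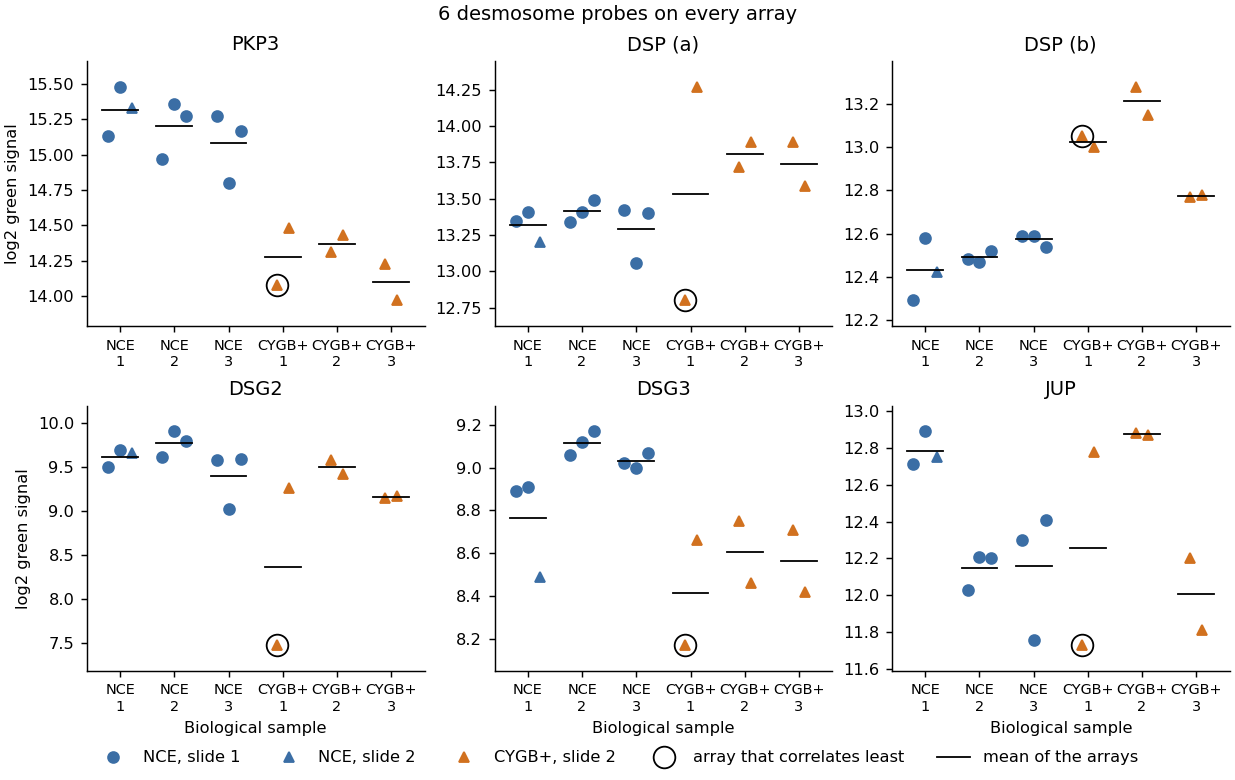
Log2 green signal (vertical axes, each with its own range) of 6 desmosome probes on every array, by biological sample; circles are slide 1, triangles slide 2, horizontal bars the means of a sample's arrays, and the ringed point the array that correlates least with its group. The PKP3 arrays separate by group also on slide 2, the slide 2 NCE array of DSG3 lies among the CYGB+ arrays, and the ringed array is far from its repeat for DSG2, DSP (a) and JUP.

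**Figure D4:**
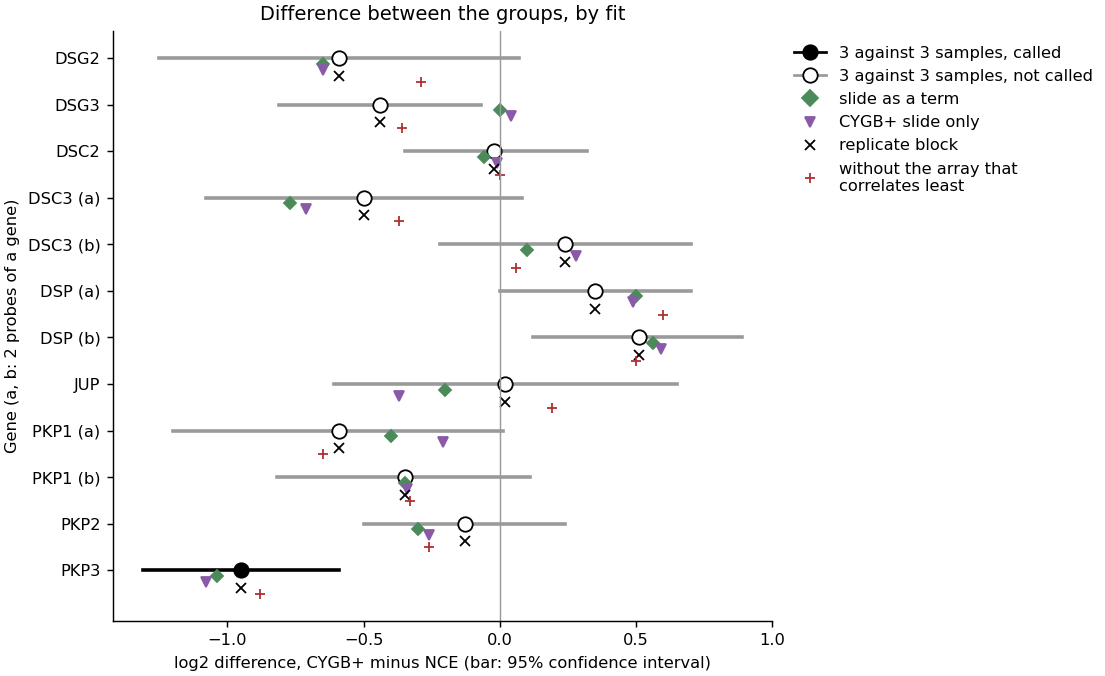
Log2 difference, CYGB+ minus NCE, of the 12 tested probes (horizontal axis), with 95% confidence intervals as bars for the comparison of 3 with 3 samples and smaller marks for 4 other fits. PKP3 is the only filled point and stays between -1.08 and -0.88 in the fits drawn, while DSG3 moves to 0 with slide as a term. That term rests on the only NCE array that shared a slide with the CYGB+ arrays.

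The genes around the desmosome were read from the same fit, with each gene represented by its brightest probe. Of 35 such genes tested in 4 lists, 5 were called, 1 higher and 4 lower, beside 11.6% of all probes. With the replicate number as a block 9 of the 35 were called, beside 17.6% of all probes. With slide as a term 1 was called, VCL, at -0.70 (adjusted p = 0.0439), and on slide 2 alone 0 of them, with 3 at an unadjusted p under 0.05. The methods' t-test called 1 of the 35, beside 794 of all 19791 probes. Without the array that stood apart 8 were called, beside 4083 of all 19791 probes. These were those 5 with ITGB4, KLK5 and PRKCA, the last named after its values were seen.

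Other desmosome proteins gave no call by limma, also none at an unadjusted p under 0.05 and none by the methods' t-test. Of 8 genes, DSG4, DSC1 and CDSN (corneodesmosin, of the cornified surface) were not tested, and the 5 others had a median difference of -0.19. PERP, a tetraspan protein needed for desmosome assembly, read 15.01, 15.18 and 15.38 in the NCE samples and 15.18, 15.04 and 15.09 in the CYGB+ samples (difference -0.09, adjusted p = 0.745). EVPL, a plakin of the cornified envelope, differed by -0.18 (adjusted p = 0.552).

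The adherens junction, the actin-linked partner of the desmosome, held 4 of the 5 calls among its 12 genes, beside 11.6% of all probes, and the methods' t-test called 0 of the 12. CDH3 (P-cadherin), the classical cadherin of basal cells, read 13.62, 13.75 and 13.76 in the NCE samples and 12.27, 12.94 and 12.73 in the CYGB+ samples, a difference of -1.07 (adjusted p = 0.0165). NECTIN2, a cell adhesion receptor of the nectin family, differed by -0.77 (adjusted p = 0.0395), and its dimmer probe by -0.45 without passing the test (adjusted p = 0.175). VCL (vinculin), which couples junctions to actin, differed by -0.58 (adjusted p = 0.0481). CTNNA1 (alpha-catenin), which joins the cadherin complex to actin, was higher on both of its probes, by 0.63 (adjusted p = 0.0443) and 0.92 (adjusted p = 0.0135). The median over the list was 0.08, and its other 8 genes gave no call. With slide as a term CDH3 was at -1.14 (adjusted p = 0.235), NECTIN2 at -0.59 (adjusted p = 0.369) and CTNNA1 at 0.51 (adjusted p = 0.228). Over 17 alternatives the adjusted p of CDH3 ran from 0.00759 to 0.336, that of NECTIN2 from 0.0206 to 0.624, that of VCL from 0.0154 to 0.497 and that of CTNNA1 from 0.013 to 0.71.

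Hemidesmosomes anchor basal cells to the matrix, and 0 of 6 genes passed the test by limma, with 2 at an unadjusted p under 0.05 and none called by the methods' t-test. ITGB4 (integrin beta 4) read 14.22, 14.35 and 14.25 in the NCE samples and 13.15, 13.92 and 13.61 in the CYGB+ samples (difference -0.71, adjusted p = 0.0687). It was called in 5 of 17 alternatives, with a lowest adjusted p of 0.0321. Among these were the replicate block (adjusted p = 0.039) and the fit without the array that stood apart (-0.49, adjusted p = 0.0369). ITGB4 was at -0.32 with slide as a term (adjusted p = 0.91) and at -0.34 on slide 2 alone (adjusted p = 0.866). Its partner ITGA6, named after its values were seen, differed by -0.61 (adjusted p = 0.114) and, on a dimmer probe, by -1.10 (adjusted p = 0.0509). CD151, a tetraspanin that binds these integrins, differed by -0.17 (adjusted p = 0.505), and by -0.82 with slide as a term (adjusted p = 0.125).

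Among 13 regulators of desmosomal genes and proteins, 12 were tested and 1 was called by its brightest probe. A dimmer probe of ADAM10, a protease that sheds cadherins and is named here after its values were seen, was also called, at -0.62 (adjusted p = 0.0453), while the brightest probe of that gene was at -0.25 (adjusted p = 0.308). GRHL1, a grainyhead-like transcription factor known for controlling DSG1 in skin, read 8.76, 8.83 and 8.75 in the NCE samples and 7.50, 7.65 and 7.96 in the CYGB+ samples, a difference of -1.08 (adjusted p = 0.0089). With slide as a term it was at -0.85 and was not called (adjusted p = 0.224), and over 17 alternatives its adjusted p ran from 0.00663 to 0.412. The letters AACCGGTT, a grainyhead-type motif that reads the same on both strands, were in none of the windows of the 8 desmosome genes that had one, and in 0.117% of all windows. Only exact copies were sought, and these are so rare that none was likely in so few windows. The scan therefore cannot show whether these genes have grainyhead sites. KLK5, a serine protease that cleaves desmosomal proteins in skin, read 12.76, 11.61 and 11.74 in the NCE samples and 13.02, 13.32 and 12.72 in the CYGB+ samples (difference 0.98, adjusted p = 0.0855). It was called in 3 of 17 alternatives, with a lowest adjusted p of 0.0265. Among these were the replicate block (adjusted p = 0.0443) and the fit without the array that stood apart (1.12, adjusted p = 0.0492). KLK5 was at 0.96 with slide as a term (adjusted p = 0.502) and at 0.64 on slide 2 alone (adjusted p = 0.624). ERBIN, a scaffold protein that binds the hemidesmosomal integrin beta 4, differed by 0.18 (adjusted p = 0.528).

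**Figure D5:**
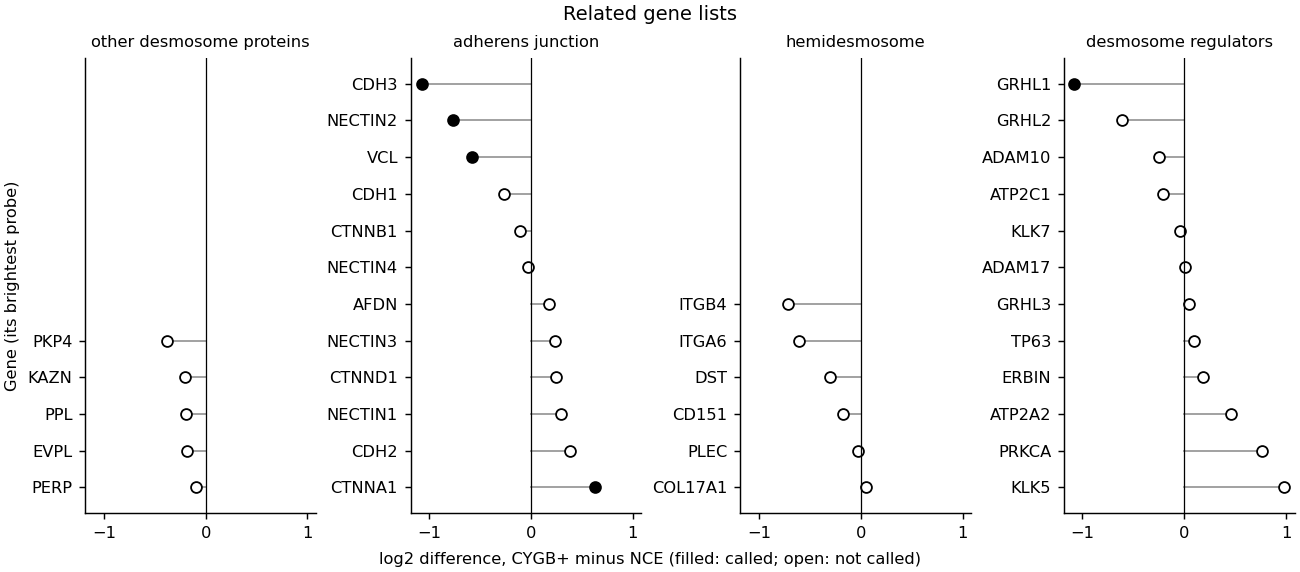
Log2 difference, CYGB+ minus NCE (horizontal axis), of the brightest probe of each tested gene in the 4 related lists; filled points passed the test. The 4 calls in the adherens junction list run from -1.07 for CDH3 to 0.63 for CTNNA1, and GRHL1 at -1.08 is the call among the regulators.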

How the data were processed

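RNA from 6 biological samples (3 NCE and 3 CYGB+) was hybridised to 15 arrays (Agilent SurePrint), and per the file headers the authors read them with Feature Extraction 10.7.3.1, which deposited green processed signal intensity, corrected for background. The headers name the build hg19 and give no probe coordinates. Groups and replicate numbers came from the sample titles. Labels give every sample as Cy3 (green), so the red channel was not used, although the study's methods put the control in Cy5.

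Intensities were taken as log2, quantile normalised over 58717 spots that are not controls, without spots flagged as outliers, and averaged over spots, then arrays. Probes well above background on every array of at least 1 group (19791) were tested with limma 3.58.1 in R 4.3.3. Genes were named by RefSeq accession (25422 probes with 1 gene matched). The number of arrays limits precision. On simulated data of this comparison over 19791 probes, limma recovered 42 of 50 planted log2 differences of 2, 18 of 50 of 1, 16 of 50 of -1 and 0 of 50 of 0.5. Far fewer probes were planted than the 2300 called in the data. The adjustment for multiple testing is stricter when fewer probes differ, so these rates may be lower than those in the data.

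Same-numbered NCE and CYGB+ samples correlated in their deviations from the group means at r = 0.239, 0.261 and 0.328, and differently numbered ones at -0.526 to 0.27. The replicate number served as a block in an alternative. The authors' deposited value table holds natural log green values centred per probe on the CYGB+ median, a scale and centring settled from the values, and was an alternative (15031 probes). Further alternatives were scaling by the 75th percentile, normexp background on the median signal with offset 50 (the files used here held no mean signal), other filters, slide terms, the methods' t-test and leaving out each replicate. The text names all 10 genes, CYGB, and in each related list every gene called at an absolute log2 difference of 0.5 or more or, where fewer than 2 were, also the 2 with the highest mean. The members and lists were chosen with earlier results of these data known. Deposited log ratios and their p-values compare the 2 channels and were not used.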

Additional observations from a re-analysis of the deposited data

Results flagged for a closer look

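The red channel, which the labels assign to no sample and which entered no comparison, held signal for the desmosome genes. Of their 13 probes, 12 were well above background in red on all 15 arrays. On any one array, between 55.6% and 61.4% of all spots and at most 2.60% of negative control spots were. The share of all probes that were so on all 15 arrays is not given, so the 12 are not set against a background. Which RNA the red channel holds is not settled by the labels and the methods together.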

How the results depend on the processing

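PKP3 kept its sign in all 17 alternatives. Among 203 values of the 12 desmosome probes under alternatives, 190 kept their direction and side of the threshold, and 0 of the 9 that turned sign had been called. Of all probes, 2300 were called, against 1444 of 15031 in the authors' value table, 794 by the methods' t-test, 1237 with no filter on dim probes, 680 with slide as a term (273 higher, 407 lower), 76 on slide 2 alone, 3478 with the replicate block, 4083 without the array that correlates least with its group (chosen after seeing the data) and 656 to 2097 without each replicate in turn, the lowest without NCE replicate 2. Desmosome probes called numbered 1, against 0 on slide 2 alone (1 at an unadjusted p under 0.05), 3 without that array and 0 to 1 without each replicate, with 0 without NCE replicate 2 (2 at an unadjusted p under 0.05). The block changed no call of a desmosome probe. Among all 19791 probes, 2000 were called with scaling by the 75th percentile and 2374 with normexp. Called genes of the related lists numbered 5, against 2 with scaling by the 75th percentile, 2 with no filter, 1 by the t-test, 1 with slide as a term, 0 on slide 2 alone, 8 with normexp, 9 with the replicate block, 8 without the array and 1 to 3 without each replicate. CYGB turned from -0.02 to 0.09 with the 75th percentile, 0.05 in the authors' table and 0.01 without the NCE array on slide 2, and ranged from -0.28 to 0.26 without each replicate. DSG3 was at 0.04 on slide 2 alone, DSC2 at 0.00 without the NCE array on slide 2 and -0.07 to 0.03 without each replicate, and JUP at -0.37 on slide 2 alone, -0.20 with slide as a term and -0.23 to 0.23 without each replicate. The 2 DSP probes passed the test without the array, at 0.60 and 0.50. The cause of these changes was not tested. Every fit assumed the same spread in both groups. Where a replicate was left out, the remaining samples of its group still entered that spread. On slide 2 alone, with 1 NCE sample, the spread within groups came from the CYGB+ samples only.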
